A study of Bos taurus with 8 samples.

Results

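A set of 10 genes that stood out in satellite cells (SCs) of passaged bovine muscle culture was followed from fresh muscle through 5 timepoints, out of 21880 genes in the count tables. The members were APOBEC2 (ENSBTAG00000005974), IRX3 (ENSBTAG00000012083), TLL2, CRNN, SEC1, THSD1, MEGF10, NCAM1, JPH1 and IP6K3, and every member was found in the tables under its symbol. They were chosen by their measured levels in passaged SCs against fibro-adipogenic progenitors (FAPs), so comparisons of SCs with FAPs at passage 2 (P2), P5 and P8, and steps between timepoints from P0 on, are given below as a description without a test. Comparisons among the SCs of P2 or P5 are other contrasts and were tested, but on SC values that the choice also used. The question asked of the other libraries was whether these genes already belonged to SCs in muscle and at passage 0 (P0).

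SCs are the stem cells of skeletal muscle. They lie between the fibre and its basement membrane, are held in the PAX7-positive state until activated, and pass through MYF5, MYOD1 and then MYOG expression as they commit to fusion. FAPs are the connective tissue progenitors of the same tissue and give rise to fibroblasts and adipocytes, and both populations expand when dissociated muscle is placed in culture.

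The samples came from semitendinosus muscle of 10 Belgian Blue cattle, 5 labelled Adult (donors 1, 3, 6, 8 and 9) and 5 labelled Calf (donors 2, 4, 5, 7 and 10), profiled by droplet-based single-cell RNA sequencing. Each timepoint pooled the donors and is treated as 1 library, although the labels list a second run for P0, P2 and P5, and donors were told apart afterwards by their genotypes. Because 1 library stood for 1 timepoint, a difference between timepoints and a difference between libraries cannot be told apart. Muscle held freshly digested, unsorted cells of all 10 donors, and P0 held the adherent, unsorted cells of 9 donors (all except donor 3) grown on fibronectin for 72 h without serum. After P0 the cultures were sorted: donors 5, 6 and 10 were grown as SC cultures on laminin-521, donors 4, 7 and 8 as FAP cultures on collagen I, and donors 1, 2 and 9 stayed unsorted on fibronectin. The labels give no drug or engineered allele for any group. The sorting panel stained ITGA7, ITGA5, JAM-1 (F11R) and CD45 (PTPRC), none of which is a member. The paper also gated SCs on CD29 and NCAM1, a member, where it compared sorting protocols. Per the paper, donors 6, 8 and 10 were male and the others female. Sort, coating and donor changed together, and no unsorted culture came from a male.

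The tables held 36129 cells with an assigned donor and cell type, of which 10650 were labelled SCs and 21409 FAPs. Library totals ran from 20977722 unique molecular identifiers (UMIs) in muscle to 252316585 at P2. SCs numbered 647 in muscle, 2282 at P0, 3979 at P2, 3586 at P5 and 156 at P8. UMIs were summed per donor and cell type wherever at least 10 cells were present and divided by the sum's own total, giving CPM, the counts scaled to a common total. This left 10, 9, 9, 7 and 4 donors with SCs along the 5 timepoints, so P8 rests on 4 donors. The 5 libraries shared 4 to 29 barcode names per pair, 129 names in all. The cell type labels came from the expression of the same cells, so a comparison of SCs with FAPs is not independent of the labels. The summed level of 6 SC markers (PAX7, MYF5, MYOD1, DES, ITGA7 and CDH15) was 919 to 2142 CPM in SCs of muscle against 77.97 to 255 CPM in FAPs, and 112 to 306 CPM against 13.7 to 23.1 CPM at P0, which sets SCs apart from FAPs. It does not set them apart from smooth muscle and mesenchymal cells (SMMCs), whose sum was 404 to 3695 CPM in muscle and 188.5 to 521 CPM at P0. CDH15 was at 0 in FAPs of muscle.

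In muscle, some of the 10 genes were already SC genes and others were not. NCAM1, APOBEC2, MEGF10, SEC1 and IP6K3 were higher in SCs than in FAPs in all 10 donors with no overlap between the groups. The pooled level of IRX3 was lower in SCs than in FAPs, the THSD1 ranges overlapped, and no CRNN UMI was counted in either. Here 2 of the 10 members passed the filter on low counts (APOBEC2 and NCAM1), and both were called higher in SCs by edgeR's quasi-likelihood test (Benjamini-Hochberg adjusted p under 0.05 and an absolute log2 fold change above 1). Of all 4450 genes tested, 6.54% were called higher and 13.4% lower, and 6.29% were higher and 9.64% lower with no overlap between the groups.

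NCAM1 encodes the adhesion molecule CD56, used as a surface marker of myogenic cells. In SCs of muscle its level ran from 184 to 417 CPM with a median of 268 CPM over 10 donors, and in FAPs from 16.04 to 66.6 CPM with a median of 44.8 CPM. The log2 fold change was 2.63 (SE 0.19, adjusted p = 9.673e-12). NCAM1 reached the filter in enough donors only in SCs, and with no filter edgeR gave 2.53 (adjusted p = 1.518e-12). APOBEC2, a muscle-expressed member of the APOBEC family, ran from 49.6 to 110 CPM in SCs (median 72.2) against 0 to 12.7 CPM in FAPs (median 4.01). For this gene the log2 fold change was 3.79 (SE 0.27, adjusted p = 3.597e-12). It passed the filter through its SC sums alone, and with no filter the value was 3.68 (adjusted p = 6.86e-18). The lowest SC donor stood above the highest FAP donor for both genes. Without the SCs that held a MYOG UMI the log2 fold changes were 2.82 for NCAM1 and 3.82 for APOBEC2.

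MEGF10 is a receptor with epidermal growth factor-like repeats that acts in engulfment and in the proliferation of SCs. It ran from 20.5 to 309.5 CPM in SCs of muscle with a median of 170 CPM. The lowest donor was donor 3, with 2 UMIs in 26 SCs. In FAPs of the same muscle 5 UMIs were counted over 1231 cells, so that the pooled CPM ratio was 301 (95% exact interval for counting error 128 to 932). SEC1, a member of the fucosyltransferase family, ran from 26.6 to 79.1 CPM in SCs, while 3 UMIs were counted in all FAPs, a pooled ratio of 134 (44.97 to 658). IP6K3, an inositol hexakisphosphate kinase enriched in muscle, ran from 8.25 to 50.8 CPM in SCs against 1 UMI in all FAPs, a ratio of 226 (39.4 to 9029). The intervals are wide because the FAP counts are so low, and they cover counting error only.

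JPH1, a junctophilin that ties the transverse tubule to the sarcoplasmic reticulum in the triad, was also higher in SCs of all 10 donors. Its range was 12.4 to 61.1 CPM in SCs and 2.83 to 22.3 CPM in FAPs, which overlapped, with a pooled ratio of 4.07 (2.92 to 5.69). TLL2, a tolloid-like metalloprotease of the astacin family, was sparse, with 22 UMIs in SCs and 1 UMI in FAPs, and a ratio of 60.6 (9.79 to 2501). It was above 0 in SCs of 9 of the 10 donors and at 0 in both cell types of donor 3. When no filter on low counts was applied, edgeR called MEGF10, NCAM1, JPH1, SEC1, IP6K3, APOBEC2 and TLL2 higher and IRX3 lower in SCs, and DESeq2 called the same genes in the same directions. Both fits called more of all genes than the filtered fit, as given below under the dependence on processing, so the shares given above do not apply to these calls. No result about the set is read from the number of members called in this way.

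IRX3, a homeobox transcription factor of the Iroquois family, went the other way. In SCs of muscle 3 UMIs were counted in 647 cells, 2 in donor 6 and 1 in donor 8, and the other 8 donors were at 0. In FAPs 107 UMIs were counted and every donor was above 0, from 3.03 to 30.15 CPM with a median of 12.9 CPM. The pooled level was 12.95-fold lower in SCs (4.31 to 63.8). In donors 1, 3 and 9 a count of 0 in SCs allows up to 18.8, 30.7 and 22.1 CPM, above their own FAP level, so the direction was not resolved in these donors. The share of SCs with an IRX3 UMI was 0.464%, below the 2.66% of vascular endothelial cells (VECs) in the same library, at a median of 3861 UMIs per SC and 2778 UMIs per VEC. Monocytes and macrophages of muscle held 0 IRX3 UMIs of 2581925. THSD1, a transmembrane protein with a thrombospondin type 1 domain known from endothelium, ran from 0 to 28.9 CPM in SCs and from 9.91 to 47.6 CPM in FAPs. It was higher in SCs in 4 donors and lower in 6, and the ratio was 0.864 (0.634 to 1.16). CRNN encodes cornulin, a protein of squamous epithelium. Its count was 0 of 2804015 UMIs in SCs of muscle, which allows a level of up to 1.07 CPM, and it was 0 in every other cell type of muscle as well.

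Transcripts of muscle fibres were present in both SCs and FAPs of the muscle library. The summed level of 19 fibre genes was 648 to 1920 CPM in SCs and 1224 to 2041 CPM in FAPs of muscle, against 5.71 to 28.3 CPM and 4.38 to 7.36 CPM at P0. Their part in the levels of fibre-expressed members such as JPH1, APOBEC2 and IP6K3 in muscle was not tested.

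Other cell types of muscle shared several of the members. SCs held the highest pooled level of NCAM1, MEGF10, SEC1 and TLL2 among the 11 cell types. For TLL2 (7.85 CPM) and SEC1 (52.1 CPM) this order was not resolved, since 1 UMI in myocytes gave TLL2 an interval of 0.152 to 33.5 CPM and 1 UMI in glial cells gave SEC1 one of 0.632 to 139 CPM. Cells labelled myocytes exceeded SCs for APOBEC2 and JPH1. In 45 myocytes, APOBEC2 was at 541 CPM (90 UMIs, 435 to 665), JPH1 at 367 CPM (61 UMIs, 281 to 471) and IP6K3 at 48.1 CPM (8 UMIs, 20.8 to 94.8). The IP6K3 interval covers the 29.2 CPM of SCs, and these cells were too few per donor for a spread over donors. SMMCs reached 64.6 CPM of APOBEC2, with a range over 10 donors of 20.4 to 98.1 CPM that overlapped that of SCs.

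Lymphatic endothelial cells (LECs) held the highest pooled level of IRX3 and THSD1 in muscle. IRX3 was at 70.1 CPM in 81 LECs (31 UMIs, 47.6 to 99.5), and THSD1 at 122 CPM (54 UMIs, 91.7 to 159). Against glial cells neither order was resolved, since 0 IRX3 UMIs allows up to 74.9 CPM and 1 THSD1 UMI gave 0.632 to 139 CPM. The IRX3 interval also overlapped that of tenocytes (3 UMIs, 4.36 to 61.8). VECs followed for THSD1 with 35.7 CPM, and their donor range of 24.1 to 53.95 CPM overlapped that of SCs. NCAM1 in glial cells of muscle rested on 9 UMIs in 12 cells (225 CPM, 103 to 427), an interval that covers the 289 CPM of SCs. At P0, SCs held the highest pooled level of 7 members, IRX3, NCAM1, SEC1, TLL2, MEGF10, CRNN and IP6K3. Of these, NCAM1 in SCs (37.1 CPM) was close to that in glial cells (36.4 CPM, 15 UMIs), and the IRX3 ranges of SCs and FAPs overlapped. MEGF10 was at 8.78 CPM in SCs, within the glial interval of 0.587 to 17.5 CPM from 2 UMIs. Donor ranges of SCs also overlapped those of monocytes and macrophages for CRNN and IP6K3, and those of LECs for TLL2. VECs led for THSD1 (84.4 CPM, donor range 55.3 to 105, above the SC range), SMMCs for APOBEC2 (40.0 CPM against 21.5 CPM in SCs, overlapping ranges), and glial cells for JPH1 (60.6 CPM, 25 UMIs in 48 cells, 39.2 to 89.5).

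**Figure D1:**
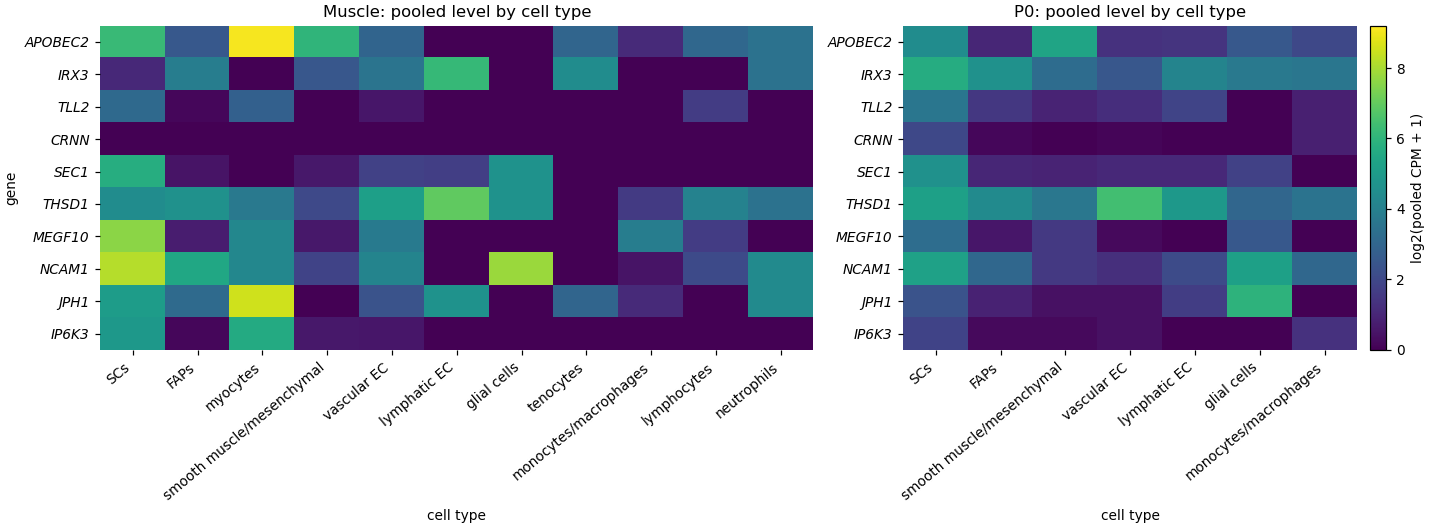
Pooled level of each of the 10 genes (rows) in each cell type (columns) of muscle, left, and P0, right, as colour on a log2(CPM + 1) scale, where dark is 0. CRNN was at 0 in every cell type of muscle, APOBEC2 and JPH1 were highest in muscle in myocytes, and IRX3 and THSD1 in LECs. Pooled levels do not show the spread between donors, and the levels of different genes are not comparable because length was not accounted for.

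In SCs, the members moved in both directions between muscle and 72 h of culture. The surface proteins NCAM1 and MEGF10 fell, as did APOBEC2 and SEC1, while the transcription factor IRX3 rose from near 0. In this comparison 6 members passed the filter on low counts. edgeR's quasi-likelihood test on 9 donors at P0 and 10 in muscle called 4 of them lower. Of these, MEGF10, APOBEC2 and SEC1 reached the filter in enough donors only in muscle. The filter thus favoured their direction, and no result is read from the count of 4. The other call, IRX3 as higher, passed the filter through P0 alone and is described by its counts below. With every sum thinned to 97693 UMIs, the smallest total, MEGF10 (-3.53) and NCAM1 (-3.16) were still called, and APOBEC2, SEC1 and IRX3 no longer passed the filter. At this total MEGF10 and NCAM1 passed through muscle alone, so their direction there was set by the filter. Of all 5221 genes tested, 18.5% were called lower and 15.8% higher, and 16.6% and 17.9% had groups that did not overlap in those directions.

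MEGF10 fell from a median of 170 CPM to 5.43 to 10.1 CPM at P0 with a median of 9.36 CPM. The log2 fold change was -4.45 (SE 0.22, adjusted p = 2.019e-14), and the highest donor at P0 was below the lowest in muscle. MEGF10 passed the filter through its muscle sums alone, and with no filter the value was -4.09 (adjusted p = 1.591e-12). NCAM1 fell to 27.2 to 46.2 CPM with a median of 37.7 CPM, a log2 fold change of -3.002 (SE 0.14, adjusted p = 2.299e-15). APOBEC2 fell to 16.3 to 34.4 CPM with a median of 20.9 CPM, by 1.80 on the log2 scale (SE 0.18, adjusted p = 3.585e-09). These 3 genes were lower at P0 in all 9 donors present at both timepoints, and their ranges did not overlap.

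SEC1 and APOBEC2 reached the filter in enough donors only in muscle. SEC1 fell to a median of 25.4 CPM, with a range of 10.9 to 27.9 CPM that overlapped that of muscle. Its log2 fold change was -1.19 (SE 0.20, adjusted p = 8.646e-06). The change was lower in all 9 donors, but with no filter on low counts it was -0.84 and with DESeq2 -0.96, which do not pass the fold threshold. JPH1 and IP6K3 did not pass the filter. The pooled level of JPH1 was 8.04-fold lower at P0 (6.19 to 10.4) and that of IP6K3 11.2-fold lower (8.35 to 15.05), with no overlap between donors for either gene. Without the filter, edgeR gave log2 fold changes of -2.68 for JPH1 (SE 0.25, adjusted p = 2.883e-12) and -3.08 for IP6K3 (SE 0.40, adjusted p = 3.796e-07).

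IRX3 rose to 28.9 to 70.0 CPM at P0 with a median of 48.9 CPM, from the 3 UMIs of muscle. Its pooled ratio was 48.0 (16.4 to 233), and it was higher in all 9 donors without overlap. It passed the filter through its P0 sums, so its fitted change is not given. THSD1 was higher at P0 in all 9 donors, with 27.7 to 42.8 CPM and a median of 36.7 CPM. THSD1 reached the filter in enough donors only at P0. Its log2 fold change of 0.71 (SE 0.19, adjusted p = 0.001373) did not pass the fold threshold. With no filter it was 1.07, which passed, and with DESeq2 0.96, which did not. CRNN appeared at P0 with 129 UMIs, above 0 in 8 of 9 donors and up to 6.18 CPM. The limit of 3 counts per donor in muscle was 6.66 CPM or more, so no single donor resolved a rise. Without the filter neither edgeR (adjusted p = 0.1408) nor DESeq2 (adjusted p = 0.06456) called CRNN. Against the 0 UMIs of muscle, the exact 95% interval of the ratio for counting error began at 2.23-fold, and the ratio to the limit of 3 counts over all SCs of muscle was 2.78. TLL2 was at 5.29 to 18.4 CPM with a median of 10.3 CPM, and its ratio to muscle was 1.43 (0.932 to 2.30), higher in 5 donors and lower in 4.

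Levels of SC markers and of fibre transcripts in these cells also differed between the libraries. Of 22 reference genes of SCs and myogenesis, 16 were tested and 15 were called lower at P0, with 0 higher, including CHRDL2 (log2 fold change -11.99), DLK1 (-10.37), MYMK (-9.90) and MYOG (-8.85). Of 20 fibre genes 9 were tested and 9 were called lower. In SCs at P0 the sum of all fibre genes had a median of 8.14 CPM, so those tested passed the filter through muscle alone. Their direction was thus set by the filter. MYOG, at 0 to 11.1 CPM at P0, passed in the same way. Of 13 genes of the triad and calcium release 4 were tested and 2 were lower, STAC3 (-6.83) and JSRP1 (-4.26). FAP genes moved in the opposite direction, with 4 of 6 tested called higher in SCs, led by LUM (3.45) and DCN (2.72). The median log2 fold change of these lists was -4.74, -7.95, -2.34 and 2.01 in the order given, beside -0.01 for all genes. Apart from the fibre genes and MYOG, listed genes were not sorted by the side that carried them past the filter. Genes with falls as large as those of CHRDL2, DLK1 and MYMK can pass through muscle alone. The list counts and medians thus describe the tested genes, and no change of myogenic state is read from them. Among 37 paralogs of the members 5 were tested, of which S100A11 (2.74) and BMP1 (2.26), the latter a relative of TLL2, were higher and IP6K2 (-1.78) lower.

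The same step in FAPs shared part of this pattern. Here 4 members passed the filter, of which 2 were called lower and 0 higher. At an unadjusted p under 0.05, 3 of the 4 differed, with IRX3 the one higher at P0. With DESeq2, which also called more of all genes, 4 members were called, of which TLL2 was the one higher (2.59). TLL2 had 1 UMI in all FAPs of muscle, so its size of change is not read. Of all 9208 genes, 22.5% were called lower and 20.9% higher. NCAM1 fell in FAPs from a median of 44.8 CPM to 7.50 CPM, a log2 fold change of -2.47 (SE 0.17, adjusted p = 1.164e-12). JPH1 fell from 8.29 to 0.861 CPM, by 3.17 on the log2 scale (SE 0.26, adjusted p = 6.14e-11). JPH1 passed the filter through its muscle sums alone, and with no filter it was -2.92 (adjusted p = 3.348e-11). Both genes were lower in all 9 donors without overlap, as 22.5% of all genes were, with 20.1% higher without overlap. APOBEC2 did not pass the filter in FAPs, but was lower at P0 in all 9 donors with a pooled ratio of 0.204 (0.141 to 0.302), and was called lower with no filter (-1.97) and with DESeq2 (-2.18). With the FAP sums thinned to 270458 UMIs, neither NCAM1 nor JPH1 passed the filter. IRX3 had a log2 fold change of 0.89 (SE 0.17, adjusted p = 5.337e-05), under the fold threshold and higher in 8 of 9 donors, and with no filter it was 1.15. THSD1 was -0.18 (SE 0.20, adjusted p = 0.4252).

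A fit of both cell types with an interaction term tested whether the change in SCs differed from that in FAPs. Of 8 members past the filter, THSD1, which had 59 or more UMIs in each group, changed more in SCs by 1.10 on the log2 scale (SE 0.30, adjusted p = 0.002565). This value is close to the fold threshold, and the separate fits with no filter gave 1.07 in SCs and 0.0922 in FAPs. IRX3, MEGF10, IP6K3 and SEC1 also passed the test, but IRX3 had 3 UMIs in SCs of muscle, and the others had 5, 1 and 3 UMIs in FAPs of muscle. No difference between the cell types is read from these 4 genes. For NCAM1 (-0.31, adjusted p = 0.2692), JPH1 (0.33, adjusted p = 0.4217) and APOBEC2 (0.62, adjusted p = 0.1818) no difference passed the test. Over all 8751 genes, 12.4% were called higher and 7.60% lower.

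**Figure D2:**
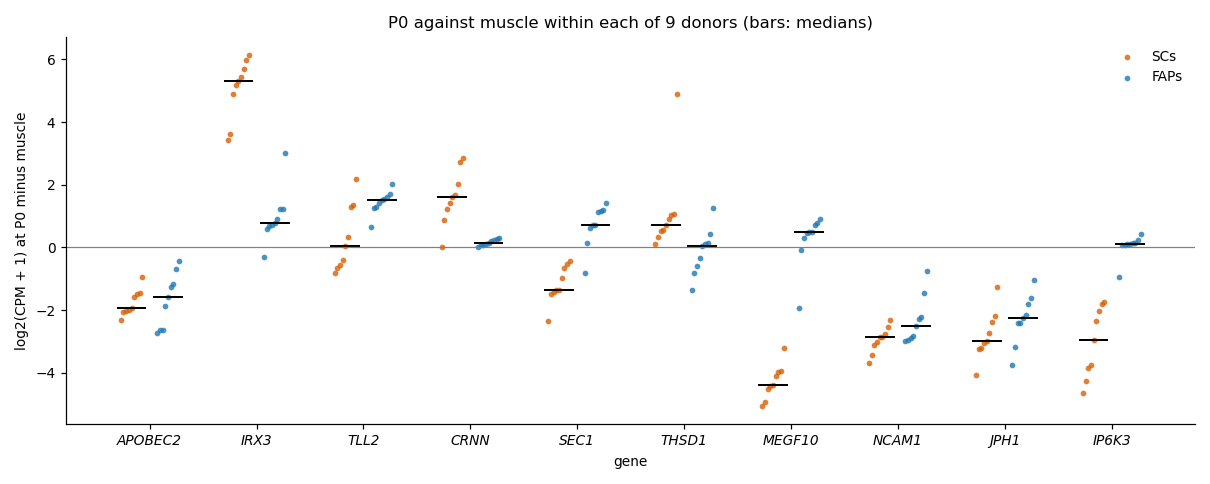
Difference in log2(CPM + 1) between P0 and muscle within each of the 9 donors present at both timepoints, for SCs (orange) and FAPs (blue). Each point is 1 donor and each bar the median over donors. IRX3 lay above 0 in SCs of all 9 donors, and MEGF10, NCAM1, APOBEC2, SEC1, JPH1 and IP6K3 lay below 0 in SCs of all 9 donors.

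Most members separated SCs from FAPs at P0, where the sums were deeper than in muscle. Here 8 members passed the filter and 7 were called higher in SCs. Of all 10827 genes tested, 5.98% were called higher and 4.69% lower. Donor ranges did not overlap for 8 members, all except IRX3 and CRNN, against 6.74% of all genes in that direction and 5.06% in the other. SEC1 was at 10.9 to 27.9 CPM in SCs against 0.544 to 1.65 CPM in FAPs, a log2 fold change of 4.56 (SE 0.18, adjusted p = 4.545e-14). APOBEC2 stood at 16.3 to 34.4 CPM in SCs against 0.464 to 1.46 CPM (4.49, SE 0.19, adjusted p = 7.402e-14). MEGF10, at 5.43 to 10.1 CPM against 0.238 to 0.872 CPM, had a log2 fold change of 4.14 (SE 0.18, adjusted p = 1.494e-13). SEC1, APOBEC2, MEGF10 and JPH1 reached the filter in enough donors only in SCs, and with no filter their log2 fold changes were 4.53, 4.46, 4.11 and 2.24, all called. So the genes that fell on culture were still higher in SCs of every donor.

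The other members called at P0 were TLL2 (log2 fold change 2.47, SE 0.21, adjusted p = 4.41e-09), NCAM1 (2.32, SE 0.10, adjusted p = 1.054e-13) and JPH1 (2.27, SE 0.19, adjusted p = 3.518e-09). The IRX3 value was 1.01 (SE 0.13, adjusted p = 3.691e-06), with 28.9 to 70.0 CPM in SCs and 20.4 to 31.5 CPM in FAPs. It was higher in SCs in all 9 donors, while the pooled level in muscle was lower in SCs, but the call rests on the fold threshold. With the donor as a block it was 0.99, and with DESeq2 0.99, both under that threshold. THSD1 was higher in SCs of all 9 donors with a log2 fold change of 0.85 (SE 0.11, adjusted p = 1.267e-06), under the fold threshold. CRNN gave 129 UMIs in SCs and 18 in FAPs, a ratio of 22.5 (13.7 to 39.2), and IP6K3 gave 113 and 22, a ratio of 16.1 (10.15 to 26.75).

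Reference lists in the same fit gave a similar direction for myogenic genes. Of 13 SC and myogenic genes tested 10 were higher in SCs and 1 lower, led by PAX7 (5.02), MYF5 (4.36), FGFR4 (4.31) and MET (3.77). In muscle 11 of 14 were higher and 1 was lower. PAX7 and MYF5 are SC markers and the labels came from the expression of the same cells. The direction of this list is therefore no independent support for the members. PAX7, at 0 to 0.194 CPM in FAPs at P0, passed the filter there through SCs alone. Of 7 triad genes tested at P0, JSRP1 (3.97) and DYSF (1.22) were higher and CASQ1 (-1.53) was lower in SCs. The paralogs of the members had 0 of 12 called higher at P0 and 1 lower, THBS1 (-1.33), with 0 of 6 called higher in muscle. At P0, SCs also held FAP markers at 979 to 2015 CPM, against 2882 to 4551 CPM in FAPs, while in muscle they had held 58.8 to 863 CPM against 21430 to 25980 CPM. The part of this narrowing in the levels above was not tested.

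The passaged cultures, from which the members were picked, are described next. At P2 the SC level of all 10 members was above that in FAPs in all 8 donors with both cell types, without overlap, which is the way they were chosen. The log2 fold changes ran from 1.60 for THSD1 (rank 474 of 11471 genes) to 6.88 for MEGF10 (rank 4), with 6.31 for SEC1, 5.96 for NCAM1, 5.94 for APOBEC2 and 5.90 for IP6K3. For TLL2, CRNN, JPH1 and IRX3 they were 5.42, 5.38, 4.84 and 3.28. Of all genes, 6.86% met the call thresholds upward and 7.13% downward, and 2.82% and 2.23% had groups that did not overlap.

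A given fold could come from a gene at high level in SCs or from one nearly lost from FAPs. IRX3 was at 196 to 279 CPM in SCs at P2 with a median of 238.5 CPM, and FAPs stayed at 12.98 to 40.0 CPM with a median of 24.6 CPM. MEGF10 was at only 2.94 to 9.25 CPM in SCs with a median of 4.30 CPM, while 6 UMIs were counted in 4987 FAPs. CRNN was at 17.6 to 56.5 CPM in SCs at P2 with a median of 35.3 CPM, and in FAPs at 0 to 0.930 CPM. Its SC level at P2 was above that at P0 in all 9 donors, with a pooled ratio of 13.2 (11.1 to 15.9).

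Along the passages the members followed different courses in SCs. IRX3 had medians of 48.9, 238.5, 260 and 166 CPM at P0, P2, P5 and P8, and FAPs held 22.5 to 24.8 CPM as medians over the same timepoints. Between P0 and P2 the IRX3 level was higher in all 9 donors, a log2 fold change of 2.38. From P0 to P2, 6.15% of all genes met the call thresholds upward and 3.9% downward, and 5.28% and 4.16% had groups that did not overlap. THSD1 followed with medians of 36.7, 80.4, 97.7 and 83.1 CPM, and TLL2 with 10.3, 23.1, 29.8 and 20.1 CPM. These genes and CRNN had their lowest mean level in muscle. For 6 others, NCAM1, APOBEC2, MEGF10, SEC1, JPH1 and IP6K3, the highest mean SC level was that of muscle.

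NCAM1 had medians of 37.7, 68.4, 103 and 54.97 CPM at P0, P2, P5 and P8. At P2 it was above P0 in 6 donors and below in 3, with means of 122 CPM in SC-sorted, 54.8 CPM in unsorted and 46.6 CPM in FAP-sorted cultures. Its donors spread widely in culture, from 23.5 to 163 CPM at P2 and from 42.55 to 194 CPM at P5. MEGF10 was lower at P2 than at P0 in all 9 donors, with a log2 fold change of -0.62. APOBEC2 was between 20.1 and 26.4 CPM at P2 in all donors except donor 5, at 51.8 CPM. SEC1 had medians of 21.6 CPM at P2 and 11.7 CPM at P5, and it was lower at P5 in the 6 donors with a count at both. Donor 4 was at 16.004 CPM at P2 and had no SEC1 UMI at P5. JPH1 stayed at medians of 4.07 and 5.21 CPM, and IP6K3 at 5.41 and 3.89 CPM. Between P2 and P5, 0.276% of all genes met the call thresholds upward and 0.164% downward, and 0 of the 10 members did either. Groups did not overlap for 0.429% of genes upward and 0.276% downward, and for 0 members.

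The thin sums of late passages limit this course. At P5, donor 4 had 10 SCs with 141002 UMIs, for which a count of 0 allows up to 21.3 CPM, and it was at 0 for CRNN, SEC1, JPH1 and IP6K3. The other 6 members were higher in SCs than in FAPs at P5 in all 7 donors without overlap. Of all genes at P5, 7.39% met the call thresholds upward and 8.89% downward, and 5.02% and 4.12% had groups that did not overlap. At P8 the 15 cells labelled SCs in the 3 FAP-sorted cultures held 1 IRX3 UMI and no CRNN or NCAM1 UMI, and none of these donors reached 10 SCs. Their pooled IRX3 level of 12.7 CPM compared with 253 CPM in the SCs of SC-sorted cultures and 147 CPM in those of unsorted cultures at P8.

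**Figure D3:**
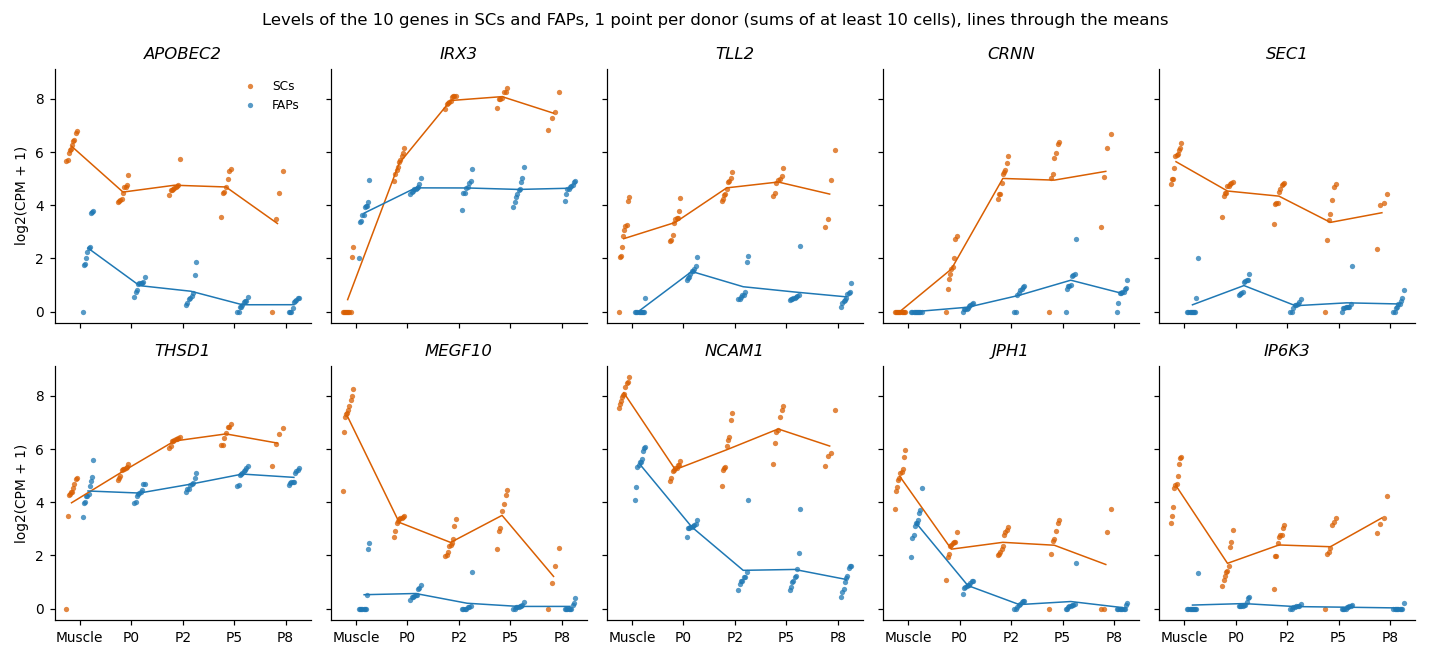
Level of each gene as log2(CPM + 1) in SCs (orange) and FAPs (blue) at the 5 timepoints, 1 point per donor with at least 10 cells, and lines through the donor means. IRX3, CRNN, THSD1 and TLL2 had their lowest SC mean in muscle, whereas NCAM1, MEGF10, APOBEC2, SEC1, JPH1 and IP6K3 had their highest SC mean there.

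Depth per cell differed between the libraries and moved the share of cells with a UMI. At the depth of the libraries IRX3 was seen in 0.464%, 47.6%, 94.1% and 95.04% of SCs in muscle and at P0, P2 and P5, and in 62.2% of the 156 SCs of P8. After each cell was thinned to 2000 UMIs the shares were 0%, 7.94%, 35.3%, 42.0% and 21.3%. In VECs at P0 IRX3 was seen in 6.14% of cells as counted and 0.483% after thinning, and in muscle 2.05% after thinning, above SCs. In the opposite direction NCAM1 was seen in 60.1% of SCs in muscle and 44.3% at P0 as counted, and in 39.8% and 7.50% after thinning. VECs held NCAM1 in 2.14% of cells in muscle and 1.69% at P0, at a median of 2778 and 12860 UMIs against 3861 and 18200 UMIs in SCs. For MEGF10 the thinned share was 27.5% in muscle and 1.40% at P0, against 0.964% and 0% of VECs. In muscle 46 SCs and 336 of 1166 VECs were too shallow for this and were left out, and at P0 3 cells of each type.

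Whether the sort changed the levels was asked at P2, between the SCs of the SC-sorted cultures (donors 5, 6 and 10) and those of unsorted cultures (donors 1, 2 and 9). Of the P2 SCs used in choosing the members, 3299 of 3979 came from the SC-sorted cultures, so the test is not independent of the choice. All 10 members were tested, and edgeR's quasi-likelihood test called 0 of them, while 3.05% of all 11378 genes were called higher and 4.46% lower. At an unadjusted p under 0.05, 1 member differed, MEGF10, and DESeq2 called 0. MEGF10 had the clearest separation, with 5.11, 7.73 and 9.25 CPM in the sorted and 3.02, 4.06 and 4.30 CPM in the unsorted cultures. Its log2 fold change was 0.85 (SE 0.30, adjusted p = 0.09904), and 26.5% of all genes were likewise higher without overlap. NCAM1 stood at 68.4, 135 and 163 CPM against 37.7, 38.7 and 87.9 CPM, which overlap (1.06, SE 0.45, adjusted p = 0.1584).

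IRX3 was at 196, 238.5 and 279 CPM in sorted and 230.3, 235 and 274 CPM in unsorted cultures, a log2 fold change of -0.16 (SE 0.15, adjusted p = 0.4948). The other 7 members had log2 fold changes between -0.53 and 0.45, and the median of the 10 was 0.20 beside 0.00 for all genes. With 3 donors a side and a single donor changing the number of genes called from 855 to 1 (donor 1), 109 (donor 9) or 298 (donor 5), this comparison says little about any difference. In the third arm, the 163 SCs found at P2 in FAP-sorted cultures held IRX3 at 223, 265 and 274 CPM, within the range of the other cultures.

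SCs in culture include cells on the way to fusion, so SCs with at least 1 UMI of MYOG, the factor of terminal myogenic commitment, were set against SCs without one in the same donors. The members divided again. MEGF10 was higher in MYOG-positive SCs at each of the 3 timepoints tested, JPH1 at P2 and P5, and NCAM1 changed sides between muscle and culture. At P0 no donor had more than 7 MYOG-positive SCs, and the comparison was not made there.

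In muscle, 4 donors (2, 5, 6 and 10) had at least 10 cells on both sides. MEGF10 was at 316, 572.5, 274 and 692 CPM in MYOG-positive SCs of these donors against 152, 174, 124 and 167 CPM in MYOG-negative SCs. This gave a log2 fold change of 1.52 (SE 0.28, adjusted p = 0.000476). NCAM1 was at 196, 103, 125 and 98.9 CPM against 419, 235.5, 315 and 404.5 CPM, a log2 fold change of -1.45 (SE 0.28, adjusted p = 0.0008372). Both genes separated the sides in all 4 donors without overlap. Of all 2921 genes, 6.64% were called higher and 10.7% lower, and 11.9% and 12.2% did not overlap. APOBEC2, the third member tested, was at 0.06 (SE 0.37, adjusted p = 0.9305).

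Of the members too sparse for the test in muscle, THSD1 was seen with 2 UMIs in MYOG-positive and 32 UMIs in MYOG-negative SCs, a ratio of 0.184 (0.0213 to 0.720). TLL2 had 0 and 14 UMIs. SEC1 had 9 and 63 UMIs, a ratio of 0.42 (0.184 to 0.849), and IP6K3 had 25 and 31 UMIs, a ratio of 2.37 (1.34 to 4.15). JPH1 had 13 and 46 UMIs, a ratio of 0.831 (0.412 to 1.56), and was higher in MYOG-positive SCs in 1 donor and lower in 3. MYOG-positive SCs of muscle were deeper, with medians of 5106 to 6555 UMIs per cell against 2737.5 to 4848 UMIs in these 4 donors, and the part of depth was not tested because too few cells reached 10000 UMIs.

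At P2, with 7 donors, 2 of the 10 members were called higher and 0 lower, as with DESeq2. At an unadjusted p under 0.05 THSD1 alone was lower (-0.32). Of all 9484 genes 1.05% were called higher and 0% lower. JPH1 was at 6.01 to 20.7 CPM in MYOG-positive SCs against 1.34 to 4.78 CPM in MYOG-negative SCs. Its log2 fold change was 1.94 (SE 0.31, adjusted p = 0.002941), higher in all 7 donors, and 0.728% of all genes were higher and 0.0633% lower without overlap. MEGF10 was at 3.13 to 23.1 CPM against 2.69 to 6.02 CPM, a log2 fold change of 1.60 (SE 0.33, adjusted p = 0.01943), again higher in all 7 donors. Both genes reached the filter in enough donors only in MYOG-positive SCs. With no filter edgeR gave 1.93 for JPH1 (adjusted p = 0.0011) and 1.59 for MEGF10 (adjusted p = 0.01051), both called. NCAM1 was higher in all 7 donors too, at 96.6 to 229 CPM against 29.4 to 143 CPM. The value of 1.10 on the log2 scale (SE 0.35, adjusted p = 0.1992) did not pass the test, and with the donor as a block it did (1.06, adjusted p = 0.0328).

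At P5, with 5 donors, 3 members were called higher and 0 lower, beside 4.04% and 2.20% of all 10056 genes. NCAM1 was at 291, 320, 226, 226 and 311 CPM in MYOG-positive SCs of donors 1, 5, 6, 9 and 10, and at 52.3, 139, 135, 74.6 and 166 CPM in their MYOG-negative SCs. The log2 fold change was 1.26 (SE 0.28, adjusted p = 0.01206) and the sides did not overlap, as for 10.1% of all genes. JPH1 was at 35.25, 16.6, 6.09, 20.1 and 9.68 CPM against 1.65, 4.11, 2.70, 1.75 and 3.58 CPM (2.41, SE 0.47, adjusted p = 0.00618). It reached the filter in enough donors only in MYOG-positive SCs, and with no filter edgeR gave 2.37 (adjusted p = 0.005589). MEGF10, higher in all 5 donors with a log2 fold change of 1.70 (SE 0.47, adjusted p = 0.03085), lost its call without donor 1, 9 or 10 (adjusted p = 0.144, 0.0805 and 0.0731).

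APOBEC2 and IP6K3 were higher in MYOG-positive SCs of all 5 donors at P5, with log2 fold changes of 1.13 (SE 0.44, adjusted p = 0.09988) and 1.07 (SE 0.46, adjusted p = 0.129). With the donor as a block both were called, at 1.05 (adjusted p = 0.000776) and 1.06 (adjusted p = 0.00338). THSD1 and IRX3 were lower in all 5 donors. The log2 fold change of THSD1 was -0.62 (SE 0.18, adjusted p = 0.03311), under the fold threshold, and that of IRX3 was -0.20 (SE 0.12, adjusted p = 0.2541), with 231 to 295 CPM against 258 to 349.5 CPM. CRNN was uneven across donors, from 5.03 to 140 CPM in MYOG-positive and from 25.8 to 89.6 CPM in MYOG-negative SCs (0.52, SE 0.51, adjusted p = 0.5371).

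Lists of genes were set beside the split, without sorting the listed genes by the side that carried them past the filter. Large changes, such as those of CHODL, CALCR, CHRDL2 and MYMK, can come from genes that passed through 1 side alone. The direction of such calls is set by the filter, so the counts and values below are a description. At P5, 13 of 13 fibre genes tested were higher in MYOG-positive SCs, and 8 of 9 triad genes were, led by CACNG1 (7.81), CASQ2 (6.73), STAC3 (4.68) and CAV3 (3.66). At P2, 9 of 10 fibre genes and 2 of 5 triad genes were higher, the latter STAC3 (4.29) and BIN1 (1.08). In muscle 0 of 7 fibre genes were called in either direction, while STAC3 (3.13) and BIN1 (1.10) were higher there as well. Of the SC and myogenic genes other than MYOG, 2 were higher and 7 lower of 14 tested in muscle, 1 was higher and 0 lower of 14 at P2, and 7 were higher and 0 lower of 16 at P5. MYMK, which drives myoblast fusion, was higher at all 3 timepoints (6.71 in muscle, 5.55 at P2 and 6.73 at P5). CHODL (-9.47), CALCR (-7.95) and CHRDL2 (-6.61) were lower in MYOG-positive SCs of muscle.

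**Figure D4:**
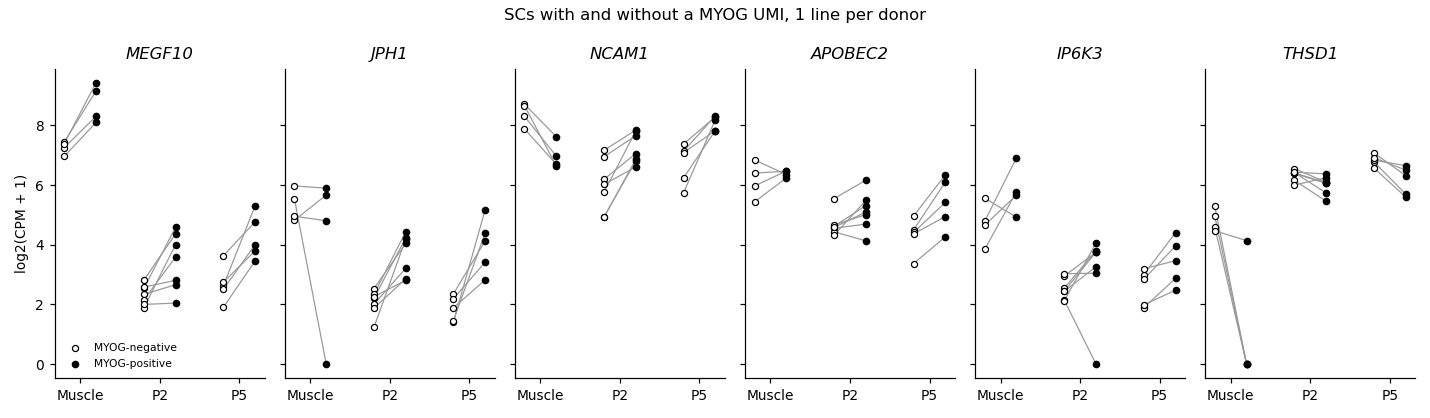
Level as log2(CPM + 1) of 6 of the 10 genes in SCs without (open) and with (filled) a MYOG UMI in muscle (4 donors), P2 (7 donors) and P5 (5 donors), with a line joining the values of 1 donor. MEGF10 was higher with MYOG in every donor, and NCAM1 was lower in all 4 donors of muscle and higher in all 7 donors of P2 and all 5 of P5.

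For each member, the genes whose mean log2 level was most like it were sought over the 19 classes of cell type and timepoint with at least 2 donor sums. Classes of 1 timepoint share a library, and genes expressed in SCs alone correlate for that reason, so these values describe likeness without a test. SEC1 was closest to ASB5 (Pearson's r = 0.949), NTN5 (0.943) and MYF5 (0.943), and NCAM1 was close to ASB5 (0.939) and ESR1 (0.930). NTN5 is the neighbour of SEC1 in the order of the RefSeq annotation of assembly ARS-UCD2.0, a build other than that of the counts. APOBEC2 was closest to AFAP1L2 (0.922), DES (0.862) and MTMR7 (0.860), and MEGF10 to PPP1R1B (0.902), SPG21 (0.880) and LRRN1 (0.874).

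CRNN was closest to CTNNA2 (0.968), R3HDML (0.967) and MYRFL (0.964), IRX3 to SFRP1 (0.888), FHOD3 (0.861) and DYNC1H1 (0.860), and TLL2 to CCDC42 (0.922), DOK7 (0.908) and BAIAP2L1 (0.908). THSD1 had the lowest values, with S100A16 (0.850), GRB10 (0.839) and TMEM63B (0.817). JPH1 was closest to KCNK2 (0.924), STK33 (0.896) and HOXA2 (0.882), and IP6K3 to HS6ST2 (0.958), LAD1 (0.957) and MSTN (0.957), the last encoding myostatin, the inhibitor of muscle growth. None of the 10 members was among the 3 closest genes of another member.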

How the data were processed

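Per the labels, cells of all donors were pooled for each of 5 timepoints and made into droplet 3′ libraries. The authors deposited whole UMI counts per gene and cell barcode, made with Cell Ranger 6.0.1 on ARS-UCD1.2 per the submitters' processing notes, and a table of cells with donor, cell type and other columns, of which 11 were not used. Cell types and donors are those of that table, and cells without both were left out. Doublets were not called again here. The members and lists were chosen with earlier results of these data known.

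For each donor and cell type with at least 10 cells the counts were added up and tested with the edgeR 4.0.16 quasi-likelihood F test (R 4.3.3, robust, TMM factors, filterByExpr) over all genes, with Benjamini-Hochberg adjustment. Calls needed an adjusted p under 0.05 together with an absolute log2 fold change above 1. SEs are the fold change divided by the root of F. Ratios of pooled counts carry exact 95% intervals, and a count of 0 is given a limit of 3 counts. The genes named were the 10 members, up to 4 called genes per list with the largest change, and the 3 genes most correlated with each member among those with at least 1 CPM in a class; 1 of these genes is not reported here. Donors are the same animals in paired groups, so the donor block was fitted as an alternative. The correlation of same-donor deviations from the group means had medians of 0.0111 to 0.448 over 7 comparisons. It was highest for the MYOG split at P2 (0.448) and P5 (0.403), whose main fits did not use the pairing. DESeq2 1.42.0, other size factors, no filter, 30 cells per sum, thinned sums and leaving out donors were also tried. The interaction, the MYOG split in muscle and the comparison without MYOG-positive SCs were added after the data were seen. On simulated counts 78% (sorted against unsorted SCs at P2) to 96% (SCs against FAPs at P0) of 200 changed genes were recovered. Other steps used Python 3.11.15, numpy 2.4.6, pandas 2.3.3, scipy 1.17.1 and matplotlib 3.10.9.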

Additional observations from a re-analysis of the deposited data

Results flagged for a closer look

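Of 98 groups of 4 to 10 donors tested for a donor far from the others, 17 held one. The cutoffs flag about 1 in 20 groups of normally distributed values, and sparse counts are not so distributed. A single UMI among zeros is always flagged, so no excess over chance is read from the 17. In SCs the flagged values were APOBEC2 at P2 in donor 5 (51.8 CPM, the others 20.1 to 26.4), SEC1 at P0 in donor 2 (10.9 CPM from 45 cells, the others 19.3 to 27.9) and NCAM1 at P8 in donor 10 (179 CPM from 36 cells, the others 40.2 to 57.0).

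The remaining 14 were high values in FAPs. In muscle, donor 8 stood out for IRX3 (30.15 CPM, the others 3.03 to 16.3), SEC1 (3.02 CPM, 2 UMIs) and IP6K3 (1.51 CPM, 1 UMI), donor 1 for JPH1 (22.3 CPM, the others 2.83 to 12.1) and donor 5 for TLL2 (0.441 CPM, 1 UMI). At P5, 5 of them came from 31 FAPs of donor 6, an SC-sorted culture: NCAM1 at 12.4 CPM, CRNN at 5.64 CPM, TLL2 at 4.52 CPM, and JPH1 and SEC1 at 2.26 CPM each. The other FAP values were NCAM1 at P2 in donor 10 (16.01 CPM, 6 UMIs in 12 cells), MEGF10 at P2 in donor 5 (1.60 CPM, 1 UMI) and at P5 in donor 5 (0.185 CPM, 3 UMIs), and IP6K3 at P8 in donor 4 (0.163 CPM, 1 UMI).

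The change from muscle to P0 differed between SCs and FAPs for THSD1, by 1.10 as SC change minus FAP change on the log2 scale. The same test passed IRX3 (4.75), MEGF10 (-3.91), IP6K3 (-3.55) and SEC1 (-2.35), but 1 group of each held 1 to 5 UMIs, and no difference is read from these values. NCAM1 was higher in MYOG-positive SCs of every donor at P2 (pooled CPM ratio 1.87) and P5 (2.02), and lower in those of all 4 donors of muscle. The difference between these timepoints was not tested.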

How the results depend on the processing

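Of the members' log2 fold changes under the alternatives, 380 kept their direction and side of the threshold, 14 became calls, 9 lost a call and 14 changed sign. The cause was not tested unless stated.

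Genes called in SCs between P0 and muscle were 1789, against 5286 with no filter, 4985 with DESeq2 and 554 with sums thinned to the smallest total, where 2 members in place of 5 were called. In FAPs they were 3997 against 6925, 6682 and 1665, with 6, 4 and 0 members called in place of 2. For SCs against FAPs in muscle they were 887 against 2984, 2582 and 351, with 8, 8 and 1 members in place of 2, and at P0 1155 against 2052 with no filter and 1912 with DESeq2. No filter tests more genes, and thinned sums hold fewer counts. The median of all genes moved with DESeq2 to -0.51 in SCs and -0.57 in FAPs between P0 and muscle. Leaving out 1 donor gave 1 to 1114 genes for sorted against unsorted SCs (855 with all) and 352 to 767 for the MYOG split at P5 (627 with all), the lowest without donor 1 in both. Without donor 9 or donor 5 the former was 109 and 298.

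For the MYOG split, no filter gave 930 genes in muscle (507) and 268 at P2 (100). At P2, DESeq2 gave 264, MYOG-positive at 3 UMIs 1099 (5 members in place of 2) and cells thinned to 10000 UMIs 197. At P5, 3 UMIs gave 1526 genes and 6 members in place of 3. With the donor as a block, the MYOG split gave 168 genes at P2 and 5 members in place of 3 at P5. For SCs against FAPs at P0 the block left 6 members in place of 7, since IRX3 went under the fold threshold.

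Signs changed in values near 0. THSD1 in FAPs was 0.0922 with no filter. Between sorted and unsorted SCs, APOBEC2, TLL2 and CRNN were -0.17, -0.13 and -0.0922 without donor 5, THSD1 was -0.0123 without donor 1 and -0.0224 without donor 9, and IP6K3 was 0.14 without donor 2. In the MYOG split of muscle, APOBEC2 was -0.0359 with no filter, -0.0596 at 3 UMIs, and -0.0460 and -0.0813 without donors 5 and 6. TLL2 was -0.0286 at P2 with thinned cells, and -0.12 at 3 UMIs and -0.11 with thinned cells at P5. The MYOG split at P0, and thinned cells in muscle, could not be run because too few cells remained. In muscle, 8 members did not pass the filter between SCs and FAPs.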

Other observations

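IRX5, an Iroquois relative of IRX3 named here after its values were seen, had mean levels of 4.404, 3.76, 51.2 and 67.0 CPM in SCs of muscle, P0, P2 and P5, and of 24.4, 7.41, 16.2 and 15.3 CPM in FAPs. Its muscle SC sums held 12 UMIs in all.

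Over all cells of a culture at P2, IRX3 was at 234, 195 and 276 CPM in the SC-sorted cultures of donors 5, 6 and 10, where 98.3%, 99.4% and 98.9% of cells were labelled SCs. In the unsorted cultures of donors 1, 2 and 9 it was at 55.9, 44.9 and 53.0 CPM, with 24.1%, 11.1% and 19.0% SCs. In the FAP-sorted cultures of donors 4, 7 and 8 it was at 47.3, 36.3 and 16.9 CPM, with 10.4%, 5.46% and 2.09% SCs. At P5 the SC-sorted culture of donor 5 held 43.0% SCs and 151 CPM of IRX3, and the unsorted culture of donor 1 held 44.2% SCs and 90.75 CPM.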
